A study of Mus musculus with 12 samples.

Results

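The 7 genes described here, Cd74, H2-Aa, H2-Ab1, H2-Eb1, H2-DMa, H2-DMb1 and Ciita, encode parts of the MHC class II antigen presentation pathway. They were chosen by name, as 7 of the 27833 genes measured. The data are hippocampal RNA-seq libraries of male wild-type C57BL/6J mice aged 20 months, which all received oral gavage for 14 days. The CON group (3 libraries) received normal saline, the PQQ-L group (5 libraries) received pyrroloquinoline quinone (PQQ), a redox cofactor, at 5 mg/kg/day, and the PQQ-H group (4 libraries) received PQQ at 10 mg/kg/day. All groups were aged, so these data hold no young mice, and the design assigned 6 mice to each group, of which the libraries listed here are a part. Libraries are named by group and by the replicate number of their label.

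MHC class II molecules carry peptides from endocytosed proteins to the cell surface, where CD4+ T cells recognize them. Their alpha and beta chains (H2-Aa, H2-Ab1 and H2-Eb1) assemble with the invariant chain, encoded by Cd74, which fills the peptide groove until proteases cut it down to a short fragment. The DM heterodimer (H2-DMa with H2-DMb1) then exchanges this fragment for other peptides. The genes are switched on by CIITA, a coactivator without DNA binding of its own that is recruited by RFX, NF-Y and CREB on the X and Y boxes of class II promoters, and that is itself induced by interferon gamma. In the brain these genes are known from border-associated macrophages, dendritic cells and activated microglia. C57BL/6 mice lack the I-E alpha chain, so H2-Eb1 is transcribed without its usual partner.

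Levels are given as FPKM, the fragments on a gene divided by its length in kilobases and by the sequencing depth of that library. The libraries held 29654553 to 38179496 reads on genes. Hippocampal neuron markers (7 genes) summed to 39.3 to 377 FPKM over the 12 libraries, of which Ociad2 alone gave 33.5 to 69.2 FPKM. The mean log2(FPKM + 0.1) of this list was 0.363 in CON 1, against 2.30 to 5.23 in the other libraries. In 4 libraries (CON 1, CON 3, PQQ-H 1 and PQQ-H 2) striatal markers (6 genes) summed to 257 to 814 FPKM, against 4.91 to 27.8 in the other 8. The same 4 had the lowest hippocampal sums, 39.3 to 90.6 FPKM against 123 to 377. These 4 libraries stand apart from the tissue of their label, and results are therefore also given without them. No source used here says which library came from which mouse, so the p-values measure the spread between these libraries.

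The promoters of the alpha and beta chains are shown because CIITA acts through them. Of the 7 genes, 4 had a promoter window in the RefSeq table (GRCm38.p6). The 2 stretches cover 160 to 21 bases before the RefSeq start, and capitals mark matches to the Y box (GATTGG), to the X2 site (TGACG, also on the other strand, where both matches overlap) or to the core of the X box, each searched on both strands. The X box core was chosen after the sequences were seen.
H2-Aa, chr17:34287844-34287983, minus strand: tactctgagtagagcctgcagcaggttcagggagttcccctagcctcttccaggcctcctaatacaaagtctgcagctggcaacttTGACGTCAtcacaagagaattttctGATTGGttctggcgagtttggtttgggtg
H2-Eb1, chr17:34305707-34305846, plus strand: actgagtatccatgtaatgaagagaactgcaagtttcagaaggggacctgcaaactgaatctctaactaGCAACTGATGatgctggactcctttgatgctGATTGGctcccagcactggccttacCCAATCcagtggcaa

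The H2-Eb1 stretch held an X box core 91 bases before the start, a Y box at 60 bases and a further Y box on the other strand at 35 bases. H2-Aa held the X2 match at 74 bases and a Y box at 49 bases, without a match to the X box core. In the window of H2-DMb1, the beta chain of DM, an X box (CCTAGTAACTGATG) lay 98 bases before the start and a Y box 62 bases before it. H2-DMa had 2 windows, 1 with a match to the looser X box pattern on the minus strand at 176 bases and 1 with a Y box at 199 bases. Of 32851 promoter windows of the same length, 16.1% held a Y box, 20.8% an X2 site, 13% the looser X box and 0.782% the X box core. A match of this kind describes the sequence and is not a measured binding site.

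Cd74 and H2-Ab1 were lower than in CON in both PQQ-treated groups, and H2-Aa was lower in PQQ-H. H2-Aa in PQQ-L and H2-Eb1 in either group did not pass the test. The CON mean was 8.48 times the PQQ-L mean and 7.36 times the PQQ-H mean for Cd74, and 8.27 and 8.42 times for H2-Ab1. H2-DMb1 differed less, and H2-DMa and Ciita differed little between CON and PQQ-H. In bulk tissue, fewer cells of a type and less RNA per cell cannot be told apart.

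**Figure D1:**
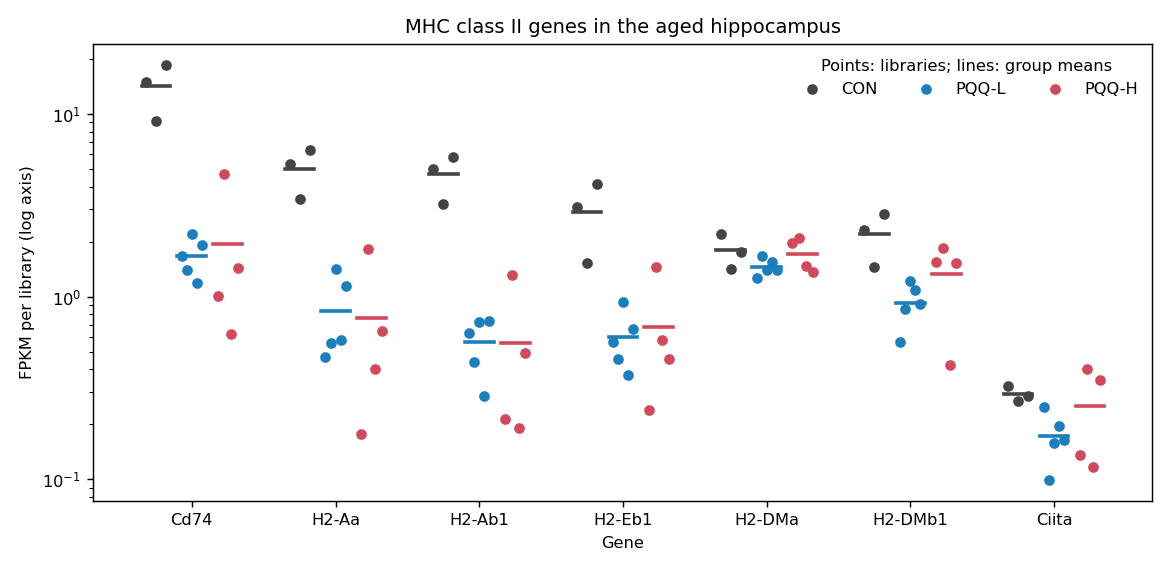
FPKM of the 7 class II genes (log axis) in each library (points), with the group mean as a line, for CON (n = 3), PQQ-L (n = 5) and PQQ-H (n = 4). For Cd74, H2-Aa, H2-Ab1 and H2-Eb1 all 3 CON libraries sit above all PQQ-treated libraries, while the 3 groups overlap for H2-DMa.

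Cd74 was the most abundant of these genes in CON, with 14.9, 9.18 and 18.6 FPKM in CON 1, 2 and 3. It was at 1.67, 1.41, 2.19, 1.19 and 1.93 FPKM in PQQ-L 1 to 5, and at 1.01, 4.67, 0.622 and 1.43 FPKM in PQQ-H 1 to 4. Its reads were 385 to 880 in the CON libraries and 31 to 214 in the others. No PQQ-treated library reached the lowest CON library, and PQQ-H 2 was the highest treated library. The mean was 14.2 ± 4.74 FPKM (SD, n = 3) in CON, 1.68 ± 0.40 in the PQQ-L group (SD, n = 5) and 1.93 ± 1.86 in the PQQ-H group (SD, n = 4).

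H2-Aa, the alpha chain of I-A, was at 5.29, 3.41 and 6.35 FPKM in CON 1 to 3. PQQ-L 1 to 5 held 0.468, 0.557, 1.41, 0.580 and 1.14 FPKM, and PQQ-H 1 to 4 held 0.177, 1.83, 0.403 and 0.648 FPKM. The groups did not overlap with CON, although PQQ-H 1 rests on only 7 reads. H2-Ab1, the beta chain of I-A, was at 4.98, 3.19 and 5.81 FPKM in CON 1 to 3. It was at 0.629, 0.439, 0.726, 0.286 and 0.737 FPKM in PQQ-L 1 to 5 and at 0.215, 1.32, 0.190 and 0.490 FPKM in PQQ-H 1 to 4. Here too every treated library was below every CON library, on 8 to 51 reads against 113 to 232.

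H2-Eb1, the beta chain of I-E, was at 3.10, 1.54 and 4.12 FPKM in CON 1 to 3. The PQQ-L libraries held 0.566, 0.455, 0.937, 0.375 and 0.667 FPKM, and the PQQ-H libraries 0.239, 1.46, 0.578 and 0.456 FPKM. The groups did not overlap with CON, but the gap was narrow, since PQQ-H 2 at 1.46 FPKM lay just under CON 2 at 1.54 FPKM.

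H2-DMb1 was at 2.32, 1.44 and 2.84 FPKM in CON 1 to 3 and at 0.563, 0.857, 1.22, 1.09 and 0.913 FPKM in PQQ-L 1 to 5, below all CON libraries. PQQ-H 1 to 4 held 1.55, 1.85, 0.420 and 1.53 FPKM, and 3 of these 4 lay within the CON range. How the counting treated reads that match both H2-DMb1 and its near-identical neighbor H2-DMb2 is not given in the sources used here, so the level of H2-DMb1 is uncertain.

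H2-DMa, the alpha chain of DM, was at 2.20, 1.41 and 1.76 FPKM in CON, at 1.27, 1.68, 1.40, 1.55 and 1.39 FPKM in PQQ-L, and at 1.96, 2.09, 1.46 and 1.37 FPKM in PQQ-H. All 3 groups overlapped. The length behind its FPKM, computed from its reads and the library totals, was about 8326 bases, against 1108 to 2005 bases for its coding transcripts in GENCODE M21. Its annotated exons there share 360 bases with Brd2 on the opposite strand, and whether reads were counted by strand is not given in the sources used here. Whether its reads come from its coding transcripts was not tested, and its FPKM cannot be ranked against the other genes. For Cd74, H2-Aa, H2-Ab1, H2-Eb1 and H2-DMb1 the same length was 1128 to 1669 bases.

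Ciita, the class II coactivator, was at 0.325, 0.269 and 0.284 FPKM in CON 1 to 3. PQQ-L 1 to 5 held 0.247, 0.0991, 0.157, 0.195 and 0.165 FPKM, all below CON, while PQQ-H 1 to 4 held 0.137, 0.401, 0.116 and 0.350 FPKM, on both sides of it. These values rest on 37 to 127 reads per library and on a length of about 9776 bases, against 6007 bases for its longest coding transcript in GENCODE M21, and 329 bases of its exons are shared with Dexi on the opposite strand. Its mean FPKM was below 0.5, so it did not enter the test across genes.

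The low dose was compared with saline first. The test was limma on log2(FPKM + 0.1), a scale that understates changes of low genes, over the 13796 genes whose mean FPKM reached 0.5, and 6 of the 7 class II genes were among them. A call required both a |log2FC| larger than 1 and an adjusted p (Benjamini-Hochberg) under 0.05. In PQQ-L vs. CON, 2 of the 6 were called, Cd74 and H2-Ab1, both lower, against 0.471% of all genes tested. The log2FC of Cd74 was -2.98 (SE 0.49, limma adjusted p = 0.0209) and that of H2-Ab1 was -2.86 (SE 0.478, limma adjusted p = 0.0215). H2-Aa, at -2.52 (SE 0.544, limma adjusted p = 0.0756), and H2-Eb1, at -2.06 (SE 0.46, limma adjusted p = 0.0858), did not pass. H2-DMb1 had a log2FC of -1.15 (limma adjusted p = 0.219) and H2-DMa of -0.26 (limma adjusted p = 0.338). The median over the 6 genes was -2.29, beside -0.03 over all genes tested.

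All 5 PQQ-L libraries lay below all 3 CON libraries for 5 of the 6 tested genes, the exception being H2-DMa, and for Ciita, while 7.66% of all genes tested did so. For these 6 genes the two-sided exact permutation test of the difference in mean log2(FPKM + 0.1) gave p = 0.0357, the smallest that 5 libraries against 3 allow, and for H2-DMa it gave p = 0.143. In total, 21 such tests were made over the 3 comparisons, and these p-values are not adjusted.

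The calls in PQQ-L rest on single libraries. Without CON 1 the limma adjusted p was 0.148 for Cd74 and 0.164 for H2-Ab1, and without CON 3 it was 0.129 and 0.13, with log2FC between -2.92 and -2.68. The calls over all genes also went from 65 to 20 and 33. No class II gene was called without PQQ-L 1, PQQ-L 2 or PQQ-L 4 either, with 43, 49 and 44 calls over all genes. Without PQQ-H 2, 4 class II genes were called, among 74 of all genes. Without CON 2 there were 5, which added H2-Aa, H2-Eb1 and H2-DMb1, but the calls over all genes went from 65 to 865 as well. Without the 4 libraries with striatal markers, an alternative chosen after seeing the data that leaves CON 2 as the only CON library, the log2FC was -2.42 for Cd74 and -2.37 for H2-Ab1. That fit takes the spread of CON from the other groups and called 1 gene of 13603, so it gives a size and no check of the calls.

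At the high dose, 3 of the 6 genes were called against CON, all lower: Cd74 with a log2FC of -3.15 (SE 0.513, limma adjusted p = 0.0125), H2-Ab1 with -3.14 (SE 0.5, limma adjusted p = 0.0108) and H2-Aa with -2.89 (SE 0.568, limma adjusted p = 0.0377). Of all genes tested, 0.819% were called. H2-Eb1 had a log2FC of -2.07 (SE 0.481, limma adjusted p = 0.0808), H2-DMb1 of -0.79 (limma adjusted p = 0.596) and H2-DMa of -0.05 (limma adjusted p = 0.941), with a 95% interval of -0.46 to 0.35 for H2-DMa. The median over the 6 genes was -2.48, beside -0.03 over all genes tested.

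For Cd74, H2-Aa, H2-Ab1 and H2-Eb1 all 4 PQQ-H libraries lay below all 3 CON libraries, which 5.72% of all genes tested did. With 4 libraries against 3, the two-sided exact permutation test cannot go below p = 0.0571, the value of these 4 genes, and it gave p = 0.229 for H2-DMb1, p = 0.857 for H2-DMa and p = 0.571 for Ciita. The variation within PQQ-H was large, with a coefficient of variation of 96.1% for Cd74 against 33.3% in CON and 23.9% in PQQ-L. PQQ-H 2 was the highest PQQ-H library for all 7 genes. Without it the log2FC of Cd74 was -3.69 (limma adjusted p = 0.000451), and H2-Eb1 was called as well (log2FC -2.48, limma adjusted p = 0.0136). The calls over all genes then went from 113 to 153.

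The calls in PQQ-H were lost without CON 1 (limma adjusted p = 0.0768 for Cd74, 0.0702 for H2-Ab1 and 0.133 for H2-Aa) and without CON 3 (limma adjusted p = 0.0914, 0.0826 and 0.187). The calls over all genes also went from 113 to 58 without CON 1 and to 47 without CON 3. The call of H2-Aa was also lost without PQQ-L 1, 2, 4 or 5 and without PQQ-H 1, 3 or 4 (limma adjusted p = 0.0531 to 0.123), so it held in 3 of 12 such fits, against 10 of 12 for Cd74 and for H2-Ab1. With CON 2 as the only CON library, the log2FC was -3.14 for Cd74, -2.99 for H2-Ab1 and -2.52 for H2-Aa, in a fit that called 5 genes in all. PQQ-L and PQQ-H were compared with the same 3 CON libraries, so both comparisons share their error.

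**Figure D2:**
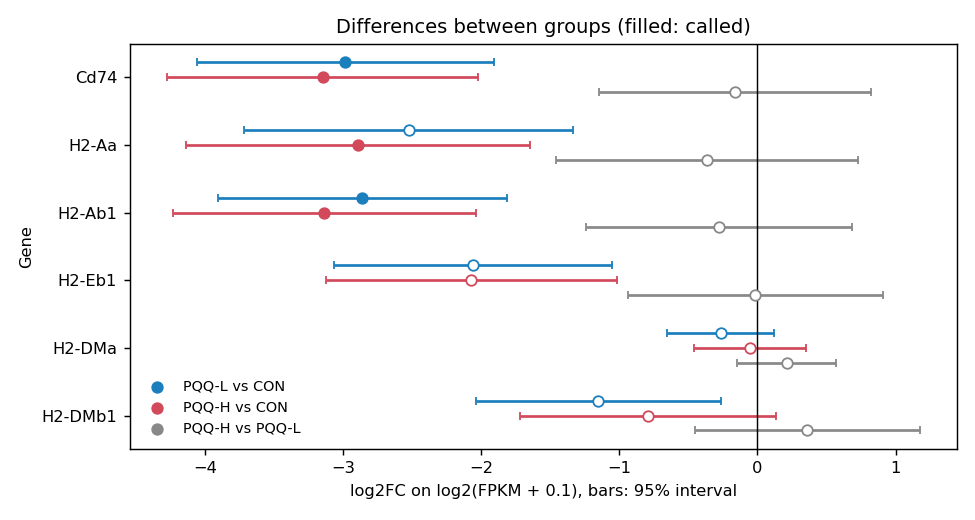
Log2FC of the 6 class II genes tested (points, filled where called) with 95% intervals, on the log2(FPKM + 0.1) scale of the limma fit, for each dose against CON and for the high against the low dose. The intervals against CON lie below 0 for Cd74, H2-Aa, H2-Ab1 and H2-Eb1, and every interval between the doses crosses 0.

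Between the doses, 0 of the 6 genes were called, as were 0% of all genes tested by limma, while 0 of the 6 and 8.15% of all genes tested had an unadjusted p below 0.05. The log2FC of PQQ-H against PQQ-L was -0.16 for Cd74 (95% interval -1.15 to 0.82), -0.37 for H2-Aa (-1.46 to 0.73), -0.28 for H2-Ab1 (-1.24 to 0.69) and -0.01 for H2-Eb1 (-0.94 to 0.91). It was 0.21 for H2-DMa (-0.14 to 0.57) and 0.36 for H2-DMb1 (-0.46 to 1.18). These intervals leave room for a difference between the doses in either direction, so the doses are not shown to act alike.

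In CON the order of the mean FPKM was Cd74, H2-Aa, H2-Ab1, H2-Eb1, H2-DMb1 and Ciita, leaving H2-DMa aside. The library ranges of H2-Aa and H2-Ab1, of H2-Ab1 and H2-Eb1, and of H2-Eb1 and H2-DMb1 overlapped, while Cd74 lay above all others. In PQQ-L, H2-DMb1 (0.927 FPKM) came before H2-Aa (0.832), H2-Eb1 (0.600) and H2-Ab1 (0.563), with overlapping ranges, and PQQ-H gave the same order at 1.34, 0.765, 0.683 and 0.554 FPKM. Cd74 was above H2-Aa in 12 of 12 libraries, but below H2-DMb1 in PQQ-H 1 (1.01 against 1.55 FPKM) and PQQ-H 4 (1.43 against 1.53 FPKM).

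Ratios within a library do not depend on its total. Cd74 over H2-Ab1 was 2.87 to 3.20 in CON, 2.61 to 4.15 in PQQ-L and 2.91 to 4.68 in PQQ-H, so the 3 ranges overlapped although both genes were lower in the treated groups. H2-Eb1 over H2-Ab1 was 0.481 to 0.709 in CON, but 0.900 to 1.31 in PQQ-L and 0.929 to 3.04 in PQQ-H, with no overlap with CON. Cd74 over H2-DMa was 6.51 to 10.5 in CON, 0.765 to 1.57 in PQQ-L and 0.425 to 2.23 in PQQ-H. The proportion of invariant chain to I-A beta chain thus overlapped between groups, and H2-Ab1 was lower relative to H2-Eb1 in every treated library than in every CON library. In the treated libraries this ratio rests on 8 to 51 reads of H2-Ab1 and 14 to 79 reads of H2-Eb1. H2-Aa over H2-Ab1 overlapped with CON, at 1.06 to 1.09 in CON, 0.744 to 2.03 in PQQ-L and 0.823 to 2.12 in PQQ-H. No test was made on these ratios.

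**Figure D3:**
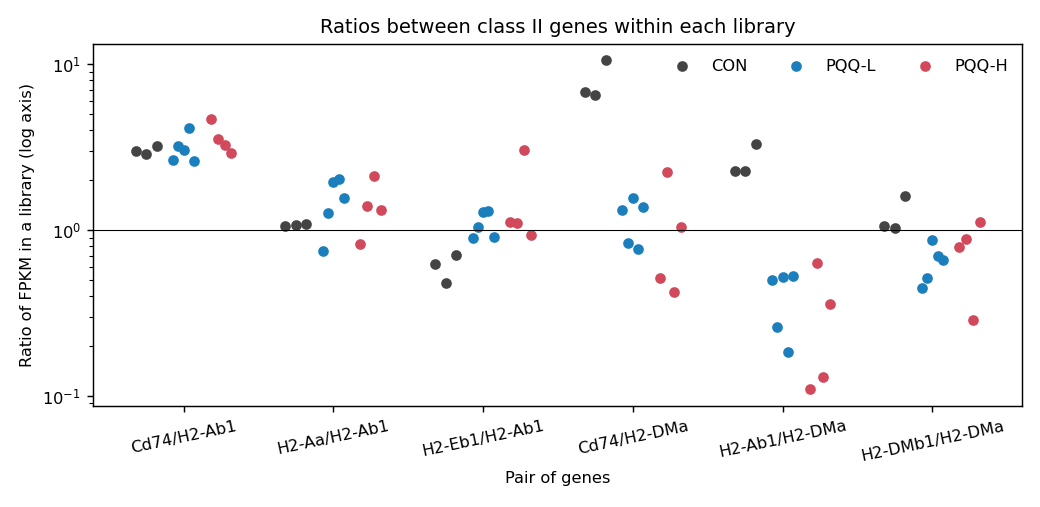
Ratios of FPKM between pairs of class II genes within each library (log axis), with 1 point per library and the line at equal FPKM. Cd74/H2-Ab1 overlaps in the 3 groups, while Cd74/H2-DMa and H2-Ab1/H2-DMa are higher in all 3 CON libraries than in all treated ones, and the height of a ratio with H2-DMa depends on the length used for its FPKM.

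Within the groups the genes varied together to different degrees. CON 2 was the lowest CON library for all 7 genes. Over the deviations of the 12 libraries from their group means, the correlation of a gene with the mean of the other class II genes tested was 0.958 for Cd74, 0.918 for H2-Ab1, 0.865 for H2-Aa and 0.809 for H2-Eb1. It was 0.547 for H2-DMb1 and 0.365 for H2-DMa. These values share libraries and tissue composition and are a description.

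Other cell types were followed through marker lists. Choroid plexus epithelium markers (12 genes, such as Ttr, the transthyretin gene) summed to 1550 to 5460 FPKM in CON, 50.5 to 124 in PQQ-L and 21.6 to 35.3 in PQQ-H, with no overlap. Of these 12 genes, 9 were called lower in PQQ-L and 10 in PQQ-H, by limma. CON 2 had the lowest choroid plexus sum of the CON libraries, 1552 FPKM, and CON 3 the highest, 5459 FPKM, which is also the order of the summed class II level (17.3 and 34.9 FPKM over Cd74, H2-Aa, H2-Ab1 and H2-Eb1). Within PQQ-H, PQQ-H 2 held the highest of both, a class II sum of 9.28 FPKM at a choroid plexus sum of 35.3 FPKM. PQQ-L did not follow this order. PQQ-L 4 had its highest choroid plexus sum, 124 FPKM, and its lowest class II sum, 2.43 FPKM. PQQ-L 5 had its lowest choroid plexus sum, 50.5 FPKM, and a class II sum of 4.47 FPKM. With the choroid plexus score (the mean log2 level of the list in each library) as a covariate, 0 of all 13796 genes were called by limma at either dose, so the absence of class II calls says nothing about these genes. Cd74 then had a log2FC of -1.43 (SE 1.55) at the low dose and -1.10 (SE 2) at the high dose. H2-Eb1 had 0.34 at the low and 1.07 at the high dose, and H2-DMb1 had 0.47 at the high dose. The score separates CON from the treated groups, so a difference in class II genes and a difference in choroid plexus content cannot be told apart here.

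**Figure D4:**
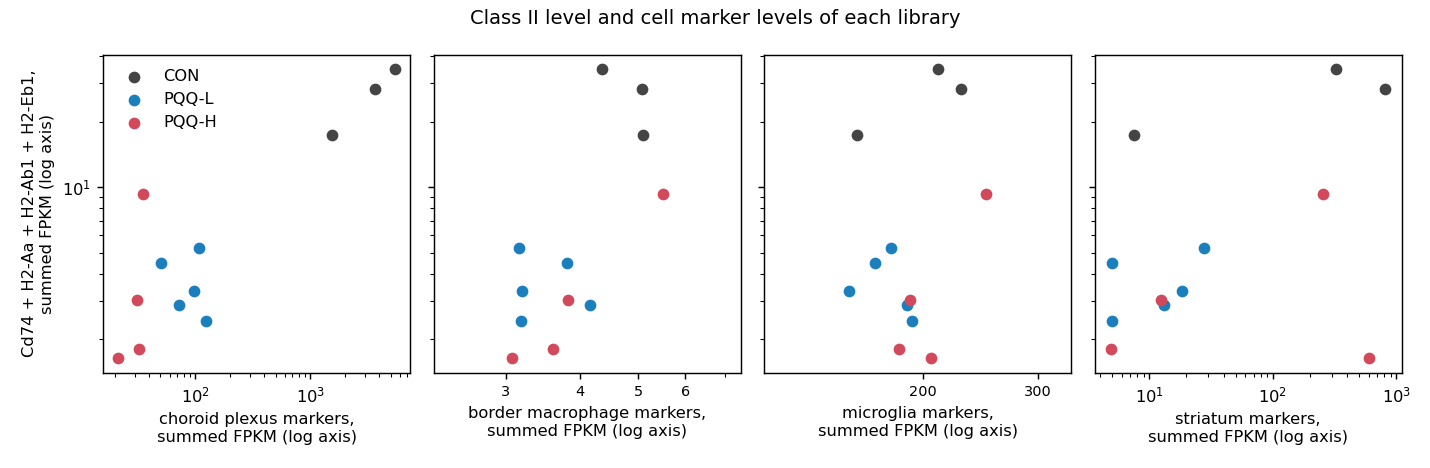
Summed FPKM of Cd74, H2-Aa, H2-Ab1 and H2-Eb1 against the summed FPKM of 4 marker lists in each library (log axes, 1 point per library). Along the choroid plexus axis the 3 CON libraries (1550 to 5460) stand apart from the treated ones (21.6 to 124), along the microglia axis the groups overlap, and PQQ-H 1 combines a high striatum sum with the lowest class II sum.

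Of the cells known to express class II genes, border-associated macrophages were followed with 8 markers, which summed to 4.35 to 5.09 FPKM in CON, 3.16 to 4.16 in PQQ-L and 3.07 to 5.5 in PQQ-H, with the highest value in PQQ-H 2, and 0 of the 3 tested were called. Ms4a7, a macrophage membrane protein below the FPKM filter, was 0.523 ± 0.0571 FPKM in CON (SD, n = 3), 0.186 ± 0.120 in PQQ-L (SD, n = 5) and 0.171 ± 0.0513 in PQQ-H (SD, n = 4), without overlap with CON. It was the only marker of the 8 without overlap, and was named for this after its values were seen. With the border macrophage score as a covariate, 0 class II genes were called, among 24 calls over all genes in PQQ-L and 60 in PQQ-H, and the log2FC of Cd74 was -2.24 in PQQ-L (limma adjusted p = 0.288) and -2.61 in PQQ-H (limma adjusted p = 0.0653). The part of these cells in the class II difference was not tested beyond this.

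Microglia markers (10 genes) summed to 158 to 229 FPKM in CON, 154 to 192 in PQQ-L and 184 to 250 in PQQ-H, and none of the 10 was called by limma in any comparison. With the microglia score as a covariate, 2 class II genes were called in PQQ-L and 4 in PQQ-H, among 59 and 169 of all genes, and the log2FC of Cd74 was -2.67 and -3.43. Activated microglia had no marker list of their own, so their part was not tested. Dendritic cell markers (7 genes) summed to 1.52 to 2.55 FPKM in CON, 2 to 2.6 in PQQ-L and 1.5 to 2.52 in PQQ-H. Flt3 and Zbtb46 carried most of this sum (means of 0.765 and 0.726 FPKM in CON). Xcr1, Clec9a and Ccr7 had at most 4 reads per library. Itgax averaged 0.232, 0.140 and 0.0945 FPKM in CON, PQQ-L and PQQ-H, and Cd209a 0.335, 0.229 and 0.382, with overlapping libraries. The sum therefore says little about the amount of dendritic cells. B cell markers (5 genes) summed to 0.144 to 0.414, 0.166 to 0.409 and 0.266 to 0.455 FPKM, and these ranges overlapped. No marker of any list was at 0 in all 12 libraries. The T cell list (6 genes) summed to 0.530 to 28.2 FPKM, and its highest values, 9.30 to 28.2 FPKM, were those of the 4 libraries with striatal markers. This sum was carried by Cd4 (up to 27.7 FPKM), while the T cell receptor genes Cd3d, Cd3e and Cd3g stayed at or below 0.165 FPKM. Blood markers (5 genes) were highest in PQQ-H 2 (600 FPKM, against 55.1 to 313 in the other libraries).

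The libraries with striatal markers included CON 1, CON 3 and PQQ-H 2, the highest of their groups in summed class II level (28.3, 34.9 and 9.28 FPKM), but also PQQ-H 1, the lowest of all 12. CON 2, with a striatal sum of 7.52 FPKM, had more Cd74, H2-Aa, H2-Ab1 and H2-Eb1 than every treated library, and PQQ-H 1, with 598 FPKM, had the lowest H2-Aa and H2-Eb1 of the 12 libraries. Meningeal markers (8 genes) summed to 10.5 to 44.2 FPKM in CON, 10.2 to 34.8 in PQQ-L and 8.40 to 10.2 in PQQ-H, and ependymal markers (5 genes) to 26.5 to 42.7, 12.2 to 31 and 4.96 to 14.4 FPKM. In both lists the PQQ-H sums lay below all CON sums. By limma, 1 meningeal and 0 ependymal markers were called lower in PQQ-L, against 0.471% of all genes tested. In PQQ-H it was 2 of each list, against 0.819%. The part of these tissues in the class II difference was not tested.

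The remaining pathway was examined with a list of 31 other genes, of which 23 passed the FPKM filter and 0 were called in any of the 3 comparisons. Their median log2FC was -0.17 at the low dose and -0.07 at the high dose, against -0.03 over all genes tested in each. In PQQ-L, 7 of the 23 had an unadjusted p below 0.05 (5 lower, 2 higher), against 20.5% of all genes tested. In PQQ-H it was 5, all lower, against 9.73%.

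The factors that bind the class II promoters (Rfx5, Rfxap and Rfxank of the RFX complex, Nfya, Nfyb and Nfyc of NF-Y, and Creb1) differed little, with log2FC from -0.2 to 0.34 in PQQ-L and from -0.13 to 0.29 in PQQ-H, and each overlapped with CON in both groups. Of the interferon gamma signal, the receptor genes Ifngr1 and Ifngr2, the kinase genes Jak1 and Jak2 and the transcription factor gene Irf1 were tested and none was called. Ifng itself had at most 1 read per library. A list of 10 genes of the interferon response had 2 called lower in PQQ-L, Bst2 and Ifi27l2a, against 0.471% of all genes tested. In PQQ-H 4 were called lower, which added Irf7 and Oasl2, against 0.819%. All 10 had a negative log2FC in both groups (median -0.99 and -1.46), as did 53.9% and 55.6% of all genes tested. The list summed to 32.8 to 84.8 FPKM in CON, 20.2 to 22.5 in PQQ-L and 13.2 to 28.9 in PQQ-H, without overlap with CON.

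The endosomal enzymes that process antigen and invariant chain had smaller differences than the class II chains. In PQQ-L, 5 of these 7 genes were lower at an unadjusted limma p below 0.05, against 20.5% of all genes tested in either direction. Also 5 lay below CON without overlap, against 7.66%. In PQQ-H these counts were 4 and 2, against 9.73% and 5.72%. Ctsl, cathepsin L, was 40.0 ± 5.98 FPKM in CON (SD, n = 3), 26.8 ± 1.31 in PQQ-L (SD, n = 5) and 27.1 ± 3.23 in PQQ-H (SD, n = 4), without overlap with CON. Its log2FC was -0.57 (SE 0.11, limma adjusted p = 0.0491) and -0.56 (SE 0.116, limma adjusted p = 0.0456), under the fold needed for a call. Ctsd, cathepsin D, had a log2FC of -0.52 (limma adjusted p = 0.0922) and -0.46 (limma adjusted p = 0.156), also without overlap. Ifi30, a reductase of antigen disulfides, had -0.81 (limma adjusted p = 0.218) and -0.64 (limma adjusted p = 0.507), without overlap with CON in PQQ-L only. Ctss, cathepsin S, which trims the invariant chain, had -0.22 (limma adjusted p = 0.443) and 0.00 (limma adjusted p = 0.995), and Sppl2a, which removes its last fragment, 0.09 and 0.06.

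Marchf1, the ubiquitin ligase that takes class II molecules from the surface, was 3.37 ± 1.80 FPKM in CON (SD, n = 3), 5.56 ± 0.850 in PQQ-L (SD, n = 5) and 3.82 ± 1.29 in PQQ-H (SD, n = 4), with a log2FC of 0.82 (limma adjusted p = 0.229) and 0.24 (limma adjusted p = 0.849). Cd86, a costimulatory ligand, had a log2FC of -0.46 (limma adjusted p = 0.271) and -0.17 (limma adjusted p = 0.866). H2-Oa and H2-Ob, which form the inhibitor of DM, were below the FPKM filter, at 0.553 and 0.266 FPKM in CON, 0.363 and 0.167 in PQQ-L and 0.423 and 0.204 in PQQ-H, with overlapping libraries. H2-DMb2 was at 0.340, 0.157 and 0.328 FPKM.

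**Figure D5:**
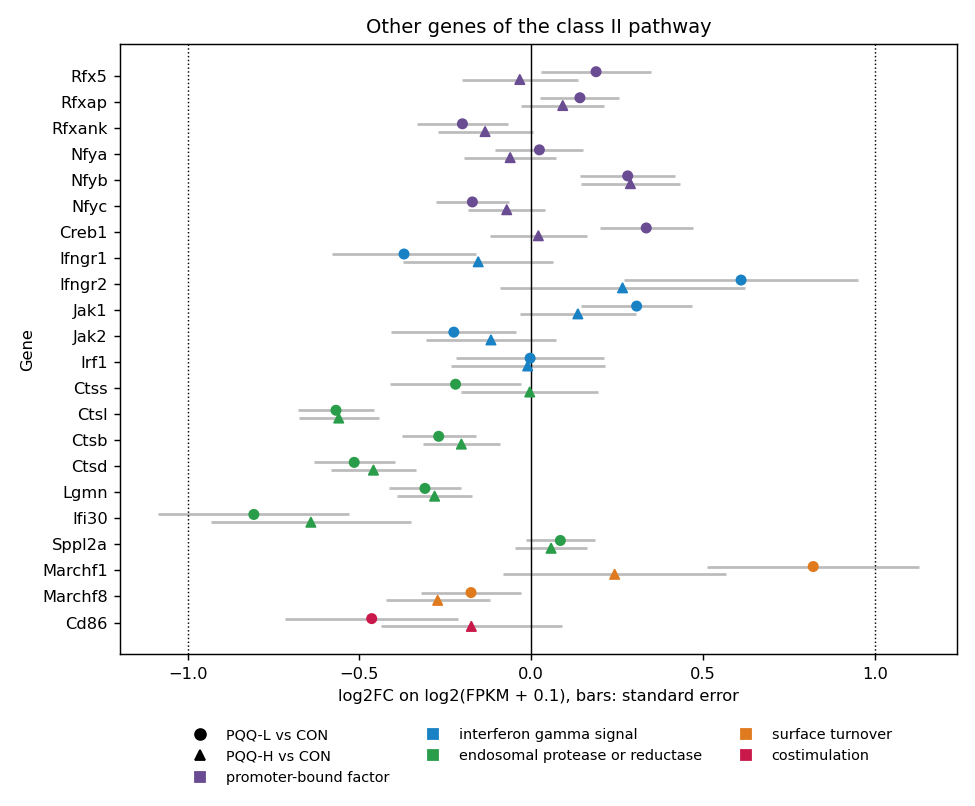
Log2FC of other pathway genes tested, for PQQ-L vs. CON (circles) and PQQ-H vs. CON (triangles) with standard errors, coloured by role. No gene shown reaches the dotted lines at a |log2FC| of 1, and Ctsl lies at -0.57 and -0.56.

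The genes outside the pathway with the pattern most like the mean of the 6 tested class II genes were sought among all genes tested. Over the deviations from the group means (12 libraries), these were Rasip1 (r = 0.966), Acat3 (0.945), Eef1d (0.935), Hspb8 (0.927) and Erp29 (0.915). Without PQQ-H 2 and PQQ-H 3, the libraries farthest from the median, their r was 0.818 to 0.937. Over the levels they were Ifi27l2a (r = 0.975), Acadvl (0.97), Ifitm3 (0.969), Tmem176b (0.969) and Cd63 (0.966), and 0.916 to 0.948 without CON 1 and CON 3. These are the extremes of a search over all genes, in libraries that share groups and tissue composition.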

How the data were processed

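RNA was sequenced from the hippocampus of 12 libraries (3 CON, 5 PQQ-L and 4 PQQ-H, grouped by their treatment labels). The authors filtered reads with fastp, mapped them with HISAT2, counted them with HTSeq-count and deposited FPKM per gene, scaled by gene length and library total. The labels name mm39, while annotation, strandedness and versions are not given in the sources used here. Whole reads were recovered from the FPKM with a tolerance of 0.02 reads for 100% of 25563 genes above 0 in at least 2 libraries, as the smallest whole numbers with the deposited ratios, and simulated recovery was exact for 98.76% of 24661 genes. The totals were 29654553 to 38179496 reads.

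All libraries entered 1 limma fit (limma 3.58.1, R 4.3.3, with trend) of log2(FPKM + 0.1), for genes whose mean FPKM reached 0.5. A call needed a |log2FC| larger than 1 and an adjusted p (Benjamini-Hochberg) under 0.05. The main test used the deposited FPKM, and voom on the recovered reads was an alternative. Simulated data for PQQ-L vs. CON held 13796 genes. Of these, 100 of 100 lowered by 2 on the log2 scale and 91 of 100 lowered by 1.2 were called, with 0 false calls. In the measured data, H2-Aa (log2FC -2.52) and H2-Eb1 (log2FC -2.06) were not called in this comparison. Every simulated gene was given the same spread, the median over the genes tested. The simulated rates therefore do not carry over to genes with a wider spread, such as H2-Aa (SE 0.544) and H2-Eb1 (SE 0.46). Exact permutation tests of single genes enumerated every assignment of libraries to the 2 groups. Promoter windows came from RefSeq GRCm38.p6, and lengths and overlaps of exons from GENCODE M21. No pair of libraries in a group was a duplicate (chi-square per degree of freedom of at least 18.76 over 19 pairs).

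The genes, lists and tests were chosen with earlier results of these data known. The genes named are the 7 class II genes, the 31 pathway genes, marker genes given beside them, and the 5 genes most like the class II mean by each of 2 measures. A few of the listed genes are not reported here. The alternatives were 17 settings, each of the 12 libraries left out, and 1 setting added after seeing the data. Other steps ran in Python 3.11.15 with pandas 2.3.3, numpy 2.4.6 and scipy 1.17.1, and figures were drawn with matplotlib 3.10.9.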

Additional observations from a re-analysis of the deposited data

How the results depend on the processing

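The log2FC of Cd74, H2-Aa and H2-Ab1 against CON was negative under all 30 alternatives in both groups, from -3.27 to -1.43 for Cd74 in PQQ-L and from -3.69 to -1.10 in PQQ-H, but the calls depended on the setting. In PQQ-L vs. CON, where 2 class II genes were called, a pseudocount of 1, only the 2 groups compared, and voom on recovered reads each gave 4 calls. There the calls over all genes went from 65 to 66, 74 and 123. Array quality weights, the replicate block, the choroid plexus score, the border macrophage score and the libraries without striatal markers (added after seeing the data) gave 0, where the calls over all genes went from 65 to 17, 23, 0, 24 and 1. Leaving out 1 library gave 0 to 5, with 20 to 865 calls over all genes. In PQQ-H vs. CON, where 3 were called, only the 2 groups compared, array quality weights, the replicate block, both scores and the libraries without striatal markers gave 0, where the calls over all genes went from 113 to 57, 31, 48, 0, 60 and 5, and leaving out 1 library gave 0 to 4. With 1 library left out, the calls over all genes in PQQ-H vs. CON were 47 to 153. The cause of these changes in the counts was not tested. The array weights did not converge, so these counts are unreliable. In PQQ-H vs. PQQ-L, 0 were called under all alternatives. Of 10 pairs of libraries with the same replicate number, 4 correlated above 0.1 over the deviations from the group means (-0.619 to 0.717). Pairs with different numbers reached 0.785 (CON 2 and PQQ-H 3) and -0.765 (CON 2 and PQQ-H 1). Because the libraries differ in striatal content, this check cannot tell whether the numbers pair them. Under the block, limma's adjusted p was 0.344 and 0.188 for Cd74 in PQQ-L and PQQ-H. H2-Aa in PQQ-H kept its call in 13 of 30 alternatives and lost it also with a pseudocount of 0.01 and with the letter of the library name.

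Some values turned direction, in genes or comparisons that were not called. With the choroid plexus score this held for H2-Eb1 (0.338 in PQQ-L and 1.07 in PQQ-H), for H2-DMb1 in PQQ-H (0.467), and between the doses for Cd74 (0.323), H2-Aa (0.186), H2-Ab1 (0.133) and H2-Eb1 (0.736). H2-DMa in PQQ-H was at 0.011 with median-of-ratios scaling, 0.082 with quantile normalization, 0.025 with the border macrophage score, 0.006 without the striatal libraries and -0.205 to 0.099 with 1 library left out, and in PQQ-L at 0.039 without the striatal libraries. Between the doses, H2-Eb1 was at 0.034 with a pseudocount of 1, 0.009 with median-of-ratios scaling, 0.021 with quantile normalization, 0.019 with the letter that opens each library name and 0.032 with the replicate block. With 1 library left out, H2-Eb1 was at -0.42 to 0.31, Cd74 at -0.704 to 0.204, H2-Aa at -0.875 to 0.061 and H2-Ab1 at -0.754 to 0.01. H2-DMa was at -0.036 and H2-DMb1 at -0.19 with the microglia score, and at -0.033 and -0.12 without the striatal libraries. The low reads, down to 7 for H2-Aa in PQQ-H 1, limit how well the treated libraries can be told apart. Where it entered the test, in 3 alternatives, Ciita had a log2FC of -0.83 to -0.55 in PQQ-L (limma adjusted p = 0.255 to 0.383) and of -0.44 to -0.26 in PQQ-H (0.769 to 0.878).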
